A study of Rattus norvegicus with 224 samples.

Results

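The genes described here build, crosslink or bind the extracellular matrix of rat aortic smooth muscle cells. They were taken by symbol: genes whose name in the platform annotation begins with Col and a digit, Lama, Lamb, Lamc, Fbn, Fbln, Mfap, Lox, Thbs, Plod, Itga or Itgb, together with Eln, Fn1, Sparc, Dcn, Bgn, Lum, Tnc, Vcan and Postn. The rule found 43 of the 6502 named genes, on 51 probes, and the first probe in the table stood for each gene. They were 6 fibrillar collagen genes (Col1a2, Col2a1, Col3a1, Col5a1, Col5a2 and Col5a3), 4 laminin genes (Lama5, Lamb2, Lamb3 and Lamc1), 4 other collagen genes (Col13a1, Col15a1, Col17a1 and Col18a1) and 9 elastic fibre and crosslinking genes (Eln, Fbln1, Fbln5, Fbn2, Loxl1, Mfap2, Mfap3, Mfap4 and Mfap5). The rest were the lysyl hydroxylase gene Plod3, 5 matricellular and fibronectin genes (Fn1, Sparc, Thbs1, Thbs2 and Tnc), 2 proteoglycan genes (Bgn and Dcn), 6 integrin alpha genes (Itga1, Itga5, Itga7, Itga8, Itga11 and Itgae) and 6 genes with the Itgb prefix. Of these last, Itgb1, Itgb4, Itgb5 and Itgb6 encode integrin chains, while Itgb1bp1 and Itgb1bp2 encode proteins that bind an integrin tail. Col1a1, Col4a1, Lox and Itgav had no probe under these symbols in the table.

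The matrix of an arterial wall is made largely by its smooth muscle cells. Fibrillar collagens give tensile strength, elastin on a scaffold of fibrillin and microfibril-associated proteins gives recoil, and laminins with network collagens form the basement membrane around each cell. Integrins are heterodimers of an alpha and a beta chain that tie matrix proteins to the cytoskeleton, and matrix deposited by smooth muscle cells forms much of the tissue that narrows a vessel after a stent is placed.

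The cells were explanted from aortas of newborn rats, cultured, made quiescent and then treated, and each of 224 arrays compared their RNA with RNA from whole newborn pups. Cells received rapamycin, an inhibitor of the mTOR kinase, at 0.01, 1 or 100 ng/mL, paclitaxel, which stabilises microtubules, at 0.01, 1 or 1000 ng/mL, or the solvent DMSO, for 6 or 24 h. All 7 drug conditions were run with 100 nM insulin or its vehicle, and in 25 mM (high) or 5 mM (normal) glucose, which gave 56 groups of 4 arrays, 1 from each of runs A to D. A dose at 1 hour therefore had 16 arrays, and an insulin or glucose level at 1 hour had 56. The labels do not say whether runs came from separate animals or cultures, so p-values measure the spread between these arrays, which may be technical. The cells were a passaged culture held in low serum. In such bulk samples fewer cells of a type and less RNA per cell cannot be told apart.

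Each array had been standardized before deposit, to mean 0 and SD 1, so every difference below is in array SDs and not a log2 fold. Scores were also close to centred over arrays for each gene, which means that they compare conditions for 1 gene and do not rank genes by level or show whether a marker was absent. Higher likely means more RNA in the cells, since the labels put the cells in the red dye. Were it the reverse ratio, every sign given here would change. Calls were made with limma, a linear model fitted across all 11575 probes, where the p adjusted by Benjamini-Hochberg was under 0.05, and ± gives an SE beside a difference and an SD beside a mean. For the 43 genes the median SE was 0.341 with 16 against 16 arrays, above the 0.286 over all probes.

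Some arrays stood apart from their labels. At 24 h in 25 mM glucose, the run B array labelled DMSO with vehicle had scores of 6.04 for the tubulin gene Tuba4a and -5.49 for the myosin light chain gene Myl9, inside the ranges of the other 15 arrays of 1000 ng/mL paclitaxel (2.20 to 6.32 and -7.20 to -0.439) and outside those of the other 15 DMSO arrays (-2.96 to 0.256 and -2.82 to 3.20). In the same run, hour and glucose, the array labelled 1000 ng/mL paclitaxel with insulin had -1.14 for Tuba4a and 0.449 for Myl9, outside both paclitaxel ranges and inside both DMSO ranges. A run D array labelled 1 ng/mL paclitaxel with vehicle, 6 h, 5 mM glucose had 2.49 for Tsc22d3, against -3.13 to 0.653 in the other 15 arrays of its dose and 1.11 to 5.10 under 100 ng/mL rapamycin. Among Mfap5, Fbln5, Itga7, Itgb5 and Lamb2, the members looked at in this array, its scores for 2 lay outside both 6 h ranges. Mfap5 was at 3.855, against -1.79 to 2.70 at its dose and -0.715 to 2.55 under rapamycin. Fbln5 was at -2.165, against -0.251 to 1.695 and -0.83 to 1.26. At 24 h of 100 ng/mL rapamycin the ranges were -0.235 to 3.689 for Mfap5 and -2.367 to 0.366 for Fbln5. These 3 arrays were kept as labelled, and values without them are given beside the called members they touch. In run A, the arrays of 0.01 ng/mL rapamycin at 6 h in 25 mM glucose with insulin and with vehicle were nearly identical (r = 0.99993), which leaves 15 distinct arrays in that arm.

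Matrix and integrin genes were called about as often as the rest of the array. Over 29 comparisons, 13 of the 43 genes (30.2%) were called at least once, against 31% of all probes, and their 26 calls made up 2.09% of their tests, against 1.97% over all probes. Fbln5 and Itga7 were each called in 4 comparisons, Col1a2 in 3, Mfap5, Itgb5, Lamb2, Fn1 and Itgae in 2, and Col5a1, Col5a2, Col18a1, Lamc1 and Itga1 in 1. Among the 26 calls, 4 held when any single run was left out: Mfap5 under 100 ng/mL rapamycin against DMSO and against 1000 ng/mL paclitaxel at 24 h, Itga7 in rapamycin against paclitaxel at 6 h, and Itgae with insulin at 6 h. The call was lost without run A for 18, without run B for 6, without run C for 17 and without run D for 8, so most single calls below did not hold in every such fit. Leaving out a run also leaves fewer arrays, so a lost call need not mean a smaller difference. Fbln5 at 24 h of 1 ng/mL rapamycin, for example, differed by -0.993 over all runs and by -1.07 without run B, where it was not called. With the differences of the 4 runs as the unit, 6 of the 26 stayed called: both Mfap5 results, Itga7 in rapamycin against DMSO and against paclitaxel at 6 h and with high glucose at 6 h, and Col1a2 in rapamycin against paclitaxel at 24 h. The other 20 had adjusted p-values of 0.0601 to 0.519 in that fit. Among the 26, 20 draw on 1 or more of the 3 arrays that go against their labels, and 18 of these stayed called without them.

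**Figure D1:**
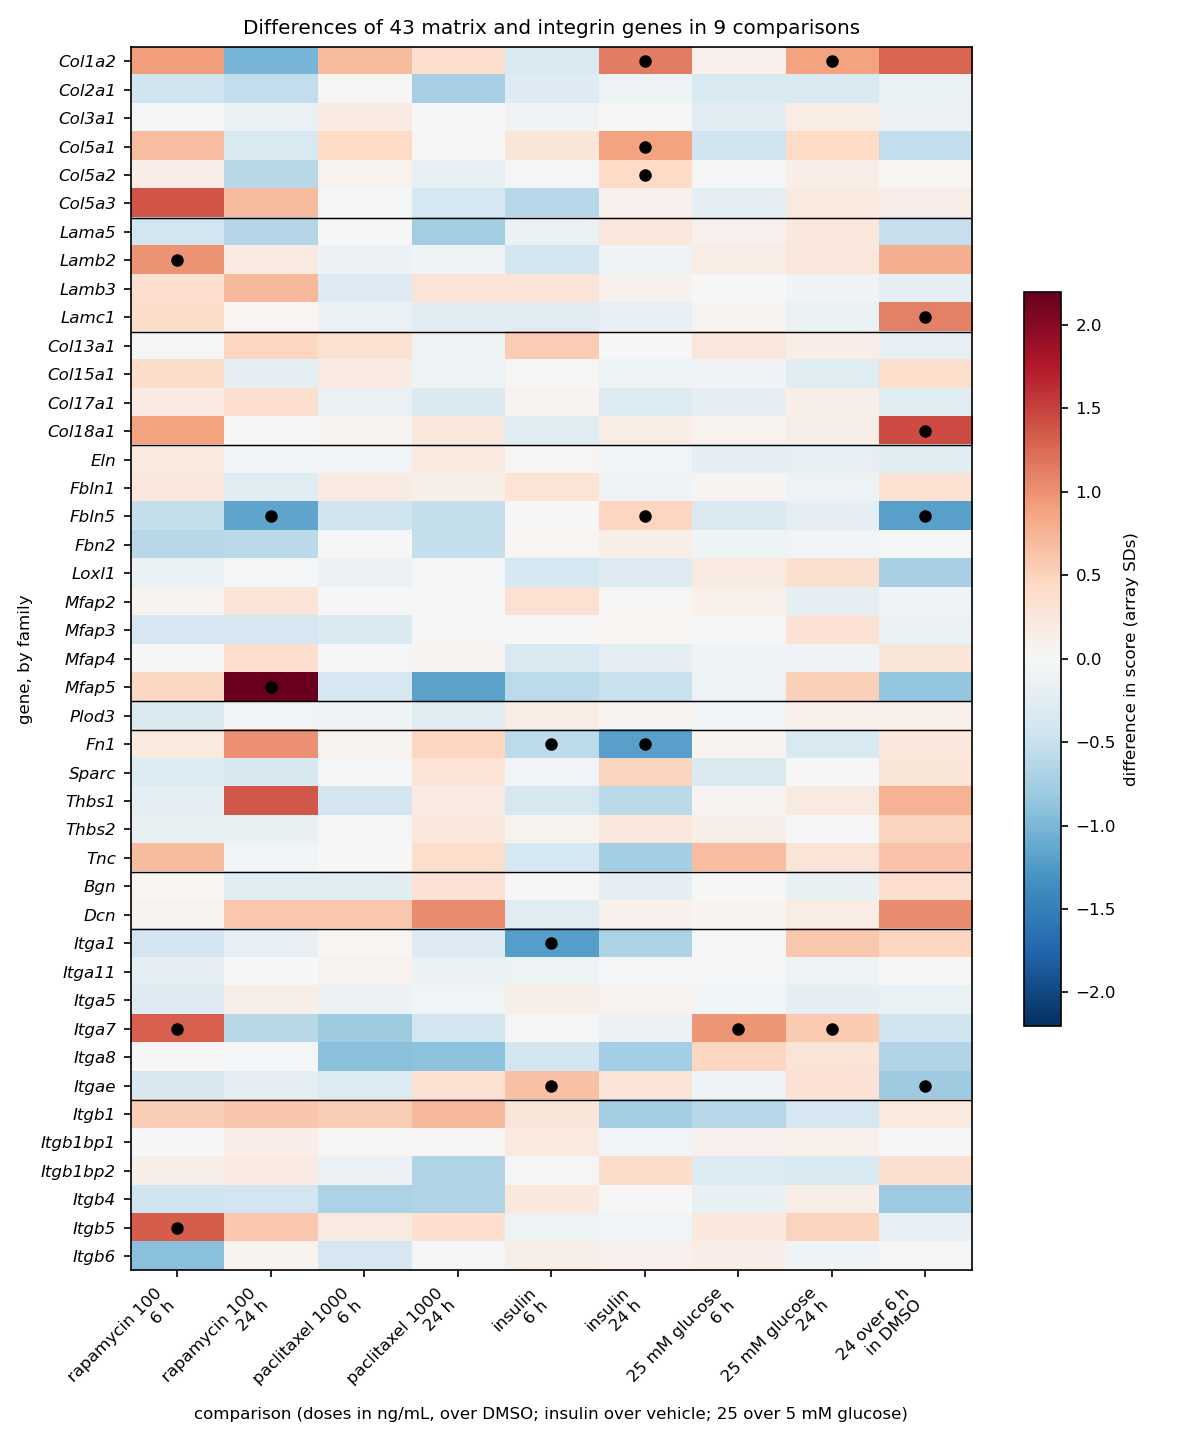
Difference in score for each of the 43 genes (rows, grouped by family) in 9 comparisons (columns), red for higher and blue for lower in the arm named, in array SDs, with a dot where limma called the gene. Dots are few and scattered over families, and the darkest cell is Mfap5 at 24 h of 100 ng/mL rapamycin (2.17).

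The first question was what rapamycin did to these genes. After 24 h of 100 ng/mL, Mfap5 rose and Fbln5 fell, while the other 7 elastic fibre and crosslinking genes were not called. Mfap5 encodes a glycoprotein of the microfibrils on which elastin is laid down, and Fbln5 encodes fibulin-5, which binds elastin and integrins and is needed to assemble elastic fibres. In all, 1 of 43 members rose, against 0.855% of all probes, and 1 fell, against 1.4%.

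Mfap5 scores under 100 ng/mL rapamycin at 24 h ran from -0.235 through a median of 1.30 to 3.69 in 16 arrays, against -3.23, -0.836 and 1.54 in DMSO. All 16 rapamycin arrays lay above the DMSO median and 7 lay above the highest DMSO array, so the arms overlapped. The means were 1.49 ± 1.18 and -0.677 ± 1.32, a difference of 2.17 ± 0.402 (limma adjusted p = 0.000135), with 1.63 to 2.90 in the 4 runs. Without the 3 arrays that go against their labels it was 1.95 ± 0.402 (adjusted p = 0.000859). The scores were ordered by dose at 24 h: means were -0.677 in DMSO, -0.286 at 0.01 ng/mL, 0.126 at 1 ng/mL and 1.49 at 100 ng/mL, where only the highest dose was called and neighbouring doses overlapped. The DMSO mean includes the run B array with the paclitaxel pattern (-3.23). Paclitaxel at 0.01 and 1 ng/mL, where no probe was called, also had means above that of DMSO, at -0.4125 and -0.368. At 6 h the difference at 100 ng/mL rapamycin was 0.449 ± 0.402 (adjusted p = 0.659), and the change between hours was 1.72 ± 0.568 (adjusted p = 0.369).

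Fbln5 scores at 24 h were -2.37 at the lowest, -1.66 at the median and 0.366 at the highest under 100 ng/mL rapamycin, against -1.75, -0.576 and 1.89 in DMSO. Of the 16 rapamycin arrays 13 lay below the DMSO median and 7 below the lowest DMSO array. The difference was -1.16 ± 0.272 (limma adjusted p = 0.00485) and -1.15 ± 0.270 without the 3 arrays. At 1 ng/mL it was -0.993 ± 0.272 (adjusted p = 0.0332), where 1 of 43 members fell, against 1.21% of all probes, and none rose, against 0.259%. At 0.01 ng/mL the mean was -0.287 ± 0.923, close to -0.274 ± 0.986 in DMSO. The call at 100 ng/mL was lost without run A (-0.936, adjusted p = 0.129) and without run B (-1.09, adjusted p = 0.0749), and the call at 1 ng/mL without any 1 of the runs (-0.862 to -1.07, adjusted p = 0.087 to 0.162). The difference at 1 ng/mL was -0.981 without the 3 arrays (adjusted p = 0.0325). At 1 ng/mL it was also lost without the run as a block (adjusted p = 0.0598).

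**Figure D2:**
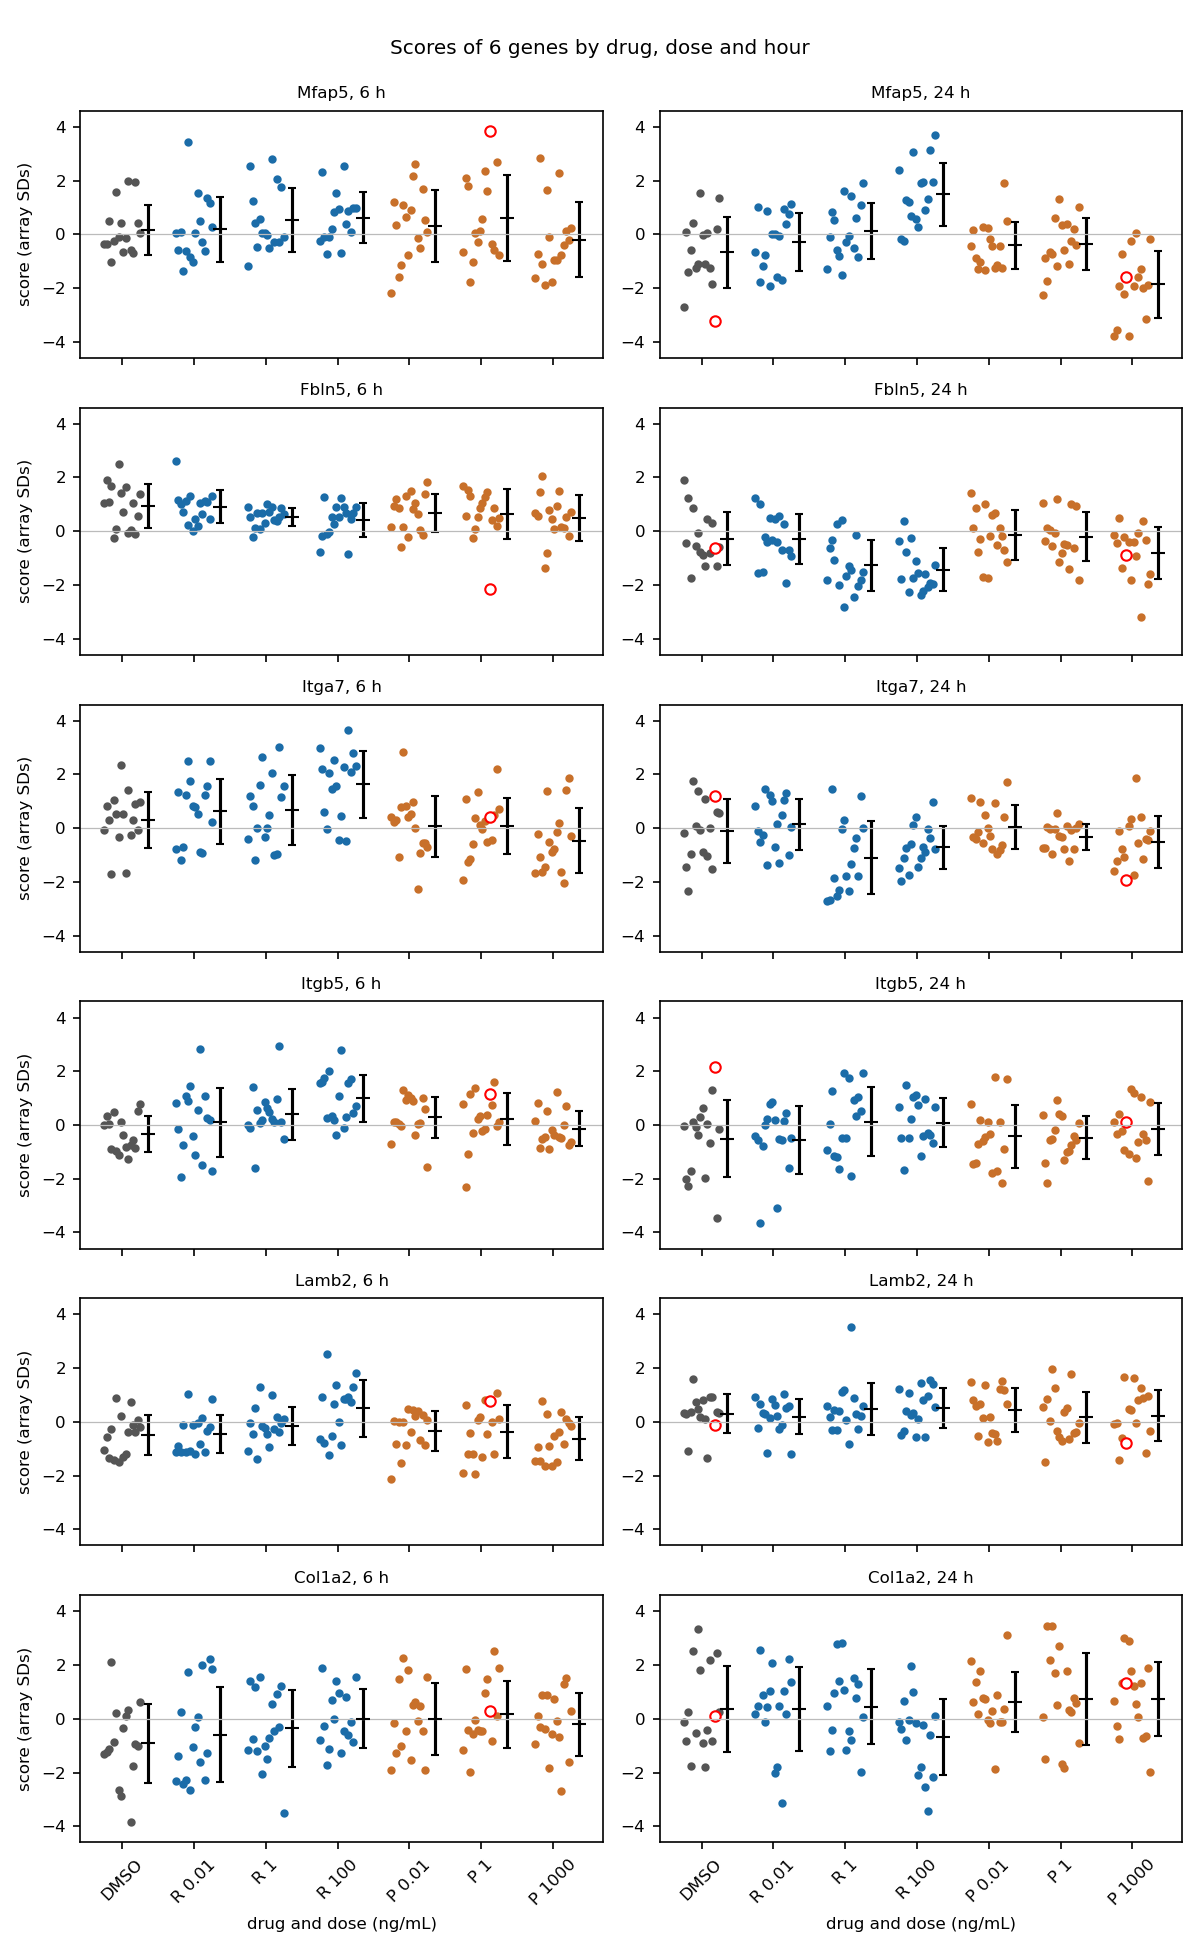
Scores (array SDs) of 6 genes in each array by drug and dose (R, rapamycin; P, paclitaxel; ng/mL), 6 h on the left and 24 h on the right, with mean and SD beside each arm and open red circles for the 3 arrays that go against their labels. At 24 h Mfap5 means step up with the dose of rapamycin to 1.49 and are lowest at 1000 ng/mL paclitaxel (-1.86), and Fbln5 is low at 1 and 100 ng/mL rapamycin.

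The sequences just upstream of these 2 genes are shown because they moved in opposite directions under the same treatment. They are the 250 bases before the annotated start, from RefSeq on GRCr8, on the strand of the gene. They were searched on both strands for the letters CCAAT, then for the TATA box letters TATAAA, and for the GC box letters GGGCGG. Capitals mark the matches, none of which overlaps another. The window of Mfap5 lies at chr4:157399669-157399918 on the plus strand and that of Fbln5 at chr6:126742707-126742956 on the minus strand.
Mfap5: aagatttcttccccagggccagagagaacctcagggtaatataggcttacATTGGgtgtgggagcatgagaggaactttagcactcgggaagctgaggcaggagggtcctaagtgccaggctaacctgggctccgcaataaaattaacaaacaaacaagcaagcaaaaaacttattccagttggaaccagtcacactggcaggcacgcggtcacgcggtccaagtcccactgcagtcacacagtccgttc
Fbln5: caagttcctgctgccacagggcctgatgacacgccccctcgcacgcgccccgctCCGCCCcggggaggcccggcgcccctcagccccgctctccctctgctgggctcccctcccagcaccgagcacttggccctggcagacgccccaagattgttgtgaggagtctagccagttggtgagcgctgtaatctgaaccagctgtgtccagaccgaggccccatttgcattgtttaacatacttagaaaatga
Mfap5 held 1 match, to CCAAT, and Fbln5 held 1, to GGGCGG. Their GC contents were 51.6% and 63.2%. In the same window CCAAT was found in 34% of 33469 rat promoters, TATAAA in 12.9% and GGGCGG in 30.5%, so these matches are common. Of the 43 members 31 had a promoter in the table, and 7 of them held CCAAT, 4 TATAAA and 14 GGGCGG.

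At 6 h of 100 ng/mL rapamycin 3 members were called. Itga7, the alpha chain of a laminin receptor of muscle, rose, as did Itgb5, the beta chain that pairs with the alpha-v chain to bind vitronectin, and Lamb2, a laminin beta chain found at muscle basement membranes. Thus 3 of 43 members rose, against 2.9% of all probes, and none fell, against 2.18%. The 43 differences had a median of 0.0503, beside -0.0221 over all probes.

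Itga7 scores were -0.467, 2.07 and 3.65 (lowest, median, highest of 16) under rapamycin at 6 h, against -1.72, 0.411 and 2.36 in DMSO. The arms overlapped, with 13 rapamycin arrays above the DMSO median and 4 above the highest DMSO array. The difference was 1.31 ± 0.352 (limma adjusted p = 0.0111), between 0.503 and 1.71 in the 4 runs, and it was not called without run A (1.21, adjusted p = 0.109) or run C (1.17, adjusted p = 0.0964).

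Itgb5 scores were -0.36, 0.901 and 2.78 under rapamycin, against -1.28, -0.467 and 0.796 in DMSO. All 16 rapamycin arrays were above the DMSO median, 8 of them above every DMSO array. The difference was 1.33 ± 0.365 (limma adjusted p = 0.0138), and the call was lost without run A (1.21, adjusted p = 0.174) or run B (1.04, adjusted p = 0.146).

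Lamb2 scores were -1.22, 0.799 and 2.52 under rapamycin, against -1.48, -0.371 and 0.881 in DMSO. Here 11 of 16 rapamycin arrays lay above the DMSO median. The difference was 0.988 ± 0.299 (limma adjusted p = 0.0307), lost without run A (1.07, adjusted p = 0.0783), run C (0.887, adjusted p = 0.189) or run D (0.810, adjusted p = 0.255).

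By 24 h none of these 3 was called: the differences were -0.606 for Itga7, 0.596 for Itgb5 and 0.203 for Lamb2. The change in the rapamycin effect from 6 to 24 h was -1.91 ± 0.497 for Itga7 (limma adjusted p = 0.114). It passed with each run and hour as its own block, where its adjusted p was 0.0398. None of the 43 members was called for this change, against 0.095% of all probes, with 5 at an unadjusted p under 0.05. At 1 ng/mL no member was called at 6 h in either direction, against 0.821% of probes higher and 0.717% lower, with 2 members at an unadjusted p under 0.05. Itga7 averaged 0.666 ± 1.30 at that dose and hour, against 0.318 ± 1.04 in DMSO. At 0.01 ng/mL limma called no member and 0% of probes at either hour, and 0 members had an unadjusted p under 0.05.

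Structural collagens were not called under rapamycin against DMSO. Col1a2, which encodes a chain of type I collagen, differed by 0.919 ± 0.467 at 6 h (limma adjusted p = 0.312) and by -1.02 ± 0.467 at 24 h (adjusted p = 0.305). Col3a1, the gene of type III collagen, differed by -0.0479 ± 0.202 and -0.144 ± 0.202 and was among the least variable members, with an SD of 0.585 over all arrays. Eln, the elastin gene, differed by 0.216 ± 0.243 at 6 h and -0.0647 ± 0.243 at 24 h. Their adjusted p-values lay between 0.749 and 0.956.

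Fibronectin and the matricellular genes were not called either. Fn1 differed by 0.219 ± 0.356 at 6 h and by 1.01 ± 0.356 at 24 h of 100 ng/mL rapamycin (limma adjusted p = 0.850 and 0.117), positive in all 4 runs at 24 h. Thbs1, the gene of thrombospondin-1, differed by -0.194 ± 0.758 and 1.37 ± 0.758 (adjusted p = 0.951 and 0.443), and its SD of 2.22 over arrays exceeded that of 99% of probes. On its second probe Thbs1 differed by -0.169 ± 0.696 and -0.832 ± 0.696 (adjusted p = 0.955 and 0.677), so the sign at 24 h depends on the probe. Tnc, the tenascin-C gene, differed by 0.699 ± 0.512 and -0.0543 ± 0.512 (adjusted p = 0.557 and 0.983). Sparc, whose product binds collagen, differed by -0.305 ± 0.307 and -0.346 ± 0.307 (adjusted p = 0.710 and 0.698).

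The small proteoglycans Bgn and Dcn, which coat collagen fibrils, differed by 0.0503 ± 0.407 and 0.0820 ± 0.438 at 6 h, and by -0.237 ± 0.407 and 0.590 ± 0.438 at 24 h. Itgb1, the beta chain shared by most collagen, laminin and fibronectin receptors, differed by 0.549 ± 0.818 and 0.610 ± 0.818. Its SD of 2.41 over arrays was the largest of the 43 members, with an SE of 0.818 for each drug difference. Itga5, the fibronectin receptor alpha chain, differed by -0.275 ± 0.227 and 0.126 ± 0.227. None of these was called at either hour, with limma adjusted p between 0.619 and 0.977.

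The genes that process collagen were examined beside the collagens themselves. In a list of 22 maturation genes, of which 11 were measured, 2 fell and 0 rose at both hours of 100 ng/mL rapamycin. Over all probes 2.18% fell and 2.9% rose at 6 h, and 1.4% fell and 0.855% rose at 24 h. No gene of this list or of the other lists below was refitted with a run left out or with runs as the unit. Serpinh1, which encodes the collagen chaperone HSP47, differed by -0.924 ± 0.218 at 6 h (limma adjusted p = 0.00294) and -1.39 ± 0.218 at 24 h (adjusted p = 6.51e-06), and P3h1, a prolyl 3-hydroxylase of collagen, by -0.716 ± 0.230 and -0.861 ± 0.230 (adjusted p = 0.0440 and 0.0180). At 1 ng/mL Serpinh1 differed by -0.902 ± 0.218 at 6 h and -0.828 ± 0.218 at 24 h (adjusted p = 0.00982 and 0.0236), and P3h1 by -1.04 ± 0.230 at 6 h (adjusted p = 0.00424). The list's median difference at 100 ng/mL was 0.166 at 6 h and -0.260 at 24 h, beside -0.0221 and 0.0119 over all probes.

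Other matrix genes gave 2 calls at 6 h and 1 at 24 h among 21 measured of 29, all higher. Over all probes 2.9% were higher at 6 h and 0.855% at 24 h, while 1.4% were lower at 24 h. Cspg4, the gene of the NG2 proteoglycan, differed by 2.75 ± 0.402 at 6 h (limma adjusted p = 1.41e-07), and Matn4, the matrilin-4 gene, by 1.28 ± 0.366 at 6 h and 1.42 ± 0.366 at 24 h. Among 10 measured of 17 remodelling genes, Serpine2, which encodes a protease inhibitor bound to matrix, and Mmp23 were lower at 24 h, at -1.74 ± 0.352 and -1.02 ± 0.282 (limma adjusted p = 0.000615 and 0.0246). At 1 ng/mL and 24 h, Serpine2 and the osteopontin gene Spp1 were lower, at -1.31 ± 0.352 and -2.10 ± 0.509 (adjusted p = 0.0277 and 0.0115). No gene of the integrin adhesion complex, 14 measured of 24, was called at either hour of 100 ng/mL rapamycin. Smooth muscle markers gave 0 calls among 6 measured under this dose. Markers of other cell types gave none either: 0 of 6 endothelial, 0 of 5 leukocyte, 0 of 4 adventitial fibroblast and 0 of 4 cartilage and bone genes.

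No matrix or integrin gene was called under paclitaxel as labelled. At 1000 ng/mL limma called none of the 43 at 6 h, against 0.164% of probes higher and 0.13% lower, with 2 members at an unadjusted p under 0.05. At 24 h it called none, against 0.484% higher and 0.838% lower, with 3 at an unadjusted p under 0.05. The median difference of the members was -0.0215 at 6 h and -0.043 at 24 h, beside 0.004 and -0.00788 over all probes. At 1 and 0.01 ng/mL no probe was called at either hour (0%), and 0 to 2 members had an unadjusted p under 0.05.

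Mfap5 came nearest to a call. At 24 h of 1000 ng/mL paclitaxel its scores were -3.80, -1.90 and 0.043 (lowest, median, highest of 16), against -3.23, -0.836 and 1.54 in DMSO. The lowest DMSO score belonged to the run B array with the paclitaxel pattern. As labelled, the difference was -1.19 ± 0.402 (limma adjusted p = 0.141), negative in all 4 runs. Without the 3 arrays that go against their labels it was -1.41 ± 0.409 (adjusted p = 0.0382), so Mfap5 fell in that fit, where 1.34% of all probes were called lower. Leaving out run A alone, limma called Itgb4, a laminin-binding integrin beta chain, lower by -1.09 (adjusted p = 0.0376).

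Structural and matricellular genes were not called under 1000 ng/mL paclitaxel. Dcn differed by 0.599 ± 0.438 at 6 h and 1.05 ± 0.438 at 24 h (limma adjusted p = 0.846 and 0.308). Col1a2 differed by 0.704 ± 0.467 and 0.370 ± 0.467, and Col3a1 by 0.183 ± 0.202 and 0.00188 ± 0.202. Fn1 differed by 0.0568 ± 0.356 and 0.480 ± 0.356, Thbs1 by -0.396 ± 0.758 and 0.187 ± 0.758, and Tnc by 0.0104 ± 0.512 and 0.385 ± 0.512, with adjusted p of 0.696 to 0.998 for these 5 genes.

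Eln differed by -0.0623 ± 0.243 at 6 h and 0.217 ± 0.243 at 24 h of 1000 ng/mL paclitaxel, Sparc by -0.0215 ± 0.307 and 0.295 ± 0.307, and Bgn by -0.251 ± 0.407 and 0.318 ± 0.407. Among integrins, Itgb1 differed by 0.541 ± 0.818 and 0.721 ± 0.818, and Itga5 by -0.132 ± 0.227 and -0.0598 ± 0.227. Mfap5 at 6 h differed by -0.375 ± 0.402. All had limma adjusted p-values of 0.814 or more. The change in the paclitaxel effect between hours was called for no member, against 0.00864% of probes, and 0 had an unadjusted p under 0.05.

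Among proteins that join integrins to actin, 2 of 14 measured fell and 1 rose at 24 h of 1000 ng/mL. Over all probes 0.838% fell and 0.484% rose. Actn1, the alpha-actinin-1 gene, differed by -1.76 ± 0.324 (limma adjusted p = 9.35e-05). The vinculin gene Vcl differed by -1.92 ± 0.319 on its first probe (adjusted p = 9.21e-06) and by -0.123 ± 0.359 on another (adjusted p = 0.950). Rsu1, part of a complex with integrin-linked kinase, differed by 1.09 ± 0.270 on its first probe (adjusted p = 0.0116) and by -0.265 ± 0.232 and -0.827 ± 0.273 on its others (adjusted p = 0.754 and 0.123). The calls for Vcl and Rsu1 thus rest on the choice of probe. The smooth muscle markers Myl9 and Tagln fell by 4.58 ± 0.428 and 4.30 ± 0.527 in the same arrays. Cnn1, Smtn, Des and Lmod1, the other smooth muscle markers measured, were not called. The summed score of these 6 measured markers of 9, which includes Myl9 and Tagln, had a median of -13.2 and ran from -17.5 to 3.50. In DMSO its median was 0.297 and its range -12.0 to 4.03. These sums, without the 3 arrays, ran from -17.5 to -2.28 under paclitaxel, against -4.75 to 4.03 in DMSO. Mmp2, the gelatinase A gene, rose by 1.26 ± 0.233 and Adamts1, a protease of proteoglycans, fell by 2.01 ± 0.402. Without the 3 arrays all 7 of these genes stayed called, at -2.09 for Actn1, -2.26 for Vcl, 1.21 for Rsu1, -5.27 for Myl9, -4.82 for Tagln, 1.25 for Mmp2 and -2.37 for Adamts1, and Cspg4 was called lower at -1.44 (adjusted p = 0.0375). The part of the marker change in the matrix results was not tested.

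Set directly against each other at 24 h, the 2 drugs differed by more in Mfap5 than in any of the other 42 members. At 24 h its scores were -0.235, 1.30 and 3.69 under 100 ng/mL rapamycin, against -3.80, -1.90 and 0.043 under 1000 ng/mL paclitaxel. Every rapamycin array lay above the paclitaxel median and 14 of 16 above the highest paclitaxel array. The difference was 3.35 ± 0.402 (limma adjusted p = 1.68e-11), 2.84 to 3.63 in the 4 runs, and 3.36 without the 3 arrays. Here 1 of 43 members was higher, against 3.22% of probes, and 1 lower, against 3.4%.

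The lower gene was Col1a2, with scores of -3.42, -0.305 and 1.95 under rapamycin, against -1.98, 0.954 and 3.02 under paclitaxel, and 14 of 16 rapamycin arrays below the paclitaxel median. Its difference of -1.39 ± 0.467 was at the edge of the threshold (limma adjusted p = 0.0494). It was lost without any 1 run (-1.03 to -1.54, adjusted p = 0.074 to 0.371) and without the run as a block (adjusted p = 0.0528), while without the 3 arrays it was -1.48 (adjusted p = 0.0375). The doses differ, so these values compare the 2 highest doses and not equal ones.

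At 6 h, 3 of 43 members were higher under rapamycin than under paclitaxel, against 3.98% of probes, and none lower, against 2.74%. They were again Itga7, Itgb5 and Lamb2, and the comparison shares the rapamycin arrays with that against DMSO. Itga7 scores were -0.467, 2.07 and 3.65 under rapamycin, against -2.05, -0.636 and 1.88 under paclitaxel, and all 16 rapamycin arrays lay above the paclitaxel median. The differences were 2.09 ± 0.352 for Itga7 (limma adjusted p = 2.96e-06), 1.12 ± 0.365 for Itgb5 (adjusted p = 0.0399) and 1.12 ± 0.299 for Lamb2 (adjusted p = 0.0075). Itgb5 scores were -0.905, -0.393 and 1.24 under paclitaxel, and Lamb2 scores -1.64, -0.679 and 0.787. Without 1 run the adjusted p stayed at 0.0104 or lower for Itga7, while Itgb5 was lost without any 1 run (0.926 to 1.27, adjusted p = 0.0526 to 0.344) and Lamb2 without run C (1.09, adjusted p = 0.0626) or run D (0.893, adjusted p = 0.150).

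In the other lists, rapamycin against paclitaxel gave 2 lower and 0 higher of 11 maturation genes at 6 h, and 4 lower and 0 higher at 24 h. Over all probes 2.74% were lower and 3.98% higher at 6 h, and 3.4% lower and 3.22% higher at 24 h. Serpinh1 was the lowest of them at both hours, at -1.35 ± 0.218 and -1.68 ± 0.218 (limma adjusted p = 9.43e-07 and 5.98e-10). The integrin adhesion list gave 3 higher and 0 lower of 14 at 6 h, and 2 higher and 1 lower at 24 h. The lower gene was Rsu1, at -1.21 ± 0.270 on its first probe (limma adjusted p = 0.000748). Its other probes were higher, at 0.528 ± 0.232 and 0.846 ± 0.273 (adjusted p = 0.184 and 0.0383). Vcl, among the higher genes at both hours, differed by 0.384 ± 0.359 at 6 h and -0.0586 ± 0.359 at 24 h on its other probe (adjusted p = 0.671 and 0.962). Other matrix genes gave 2 higher and 0 lower of 21 at 6 h, and 3 higher and 2 lower at 24 h, and remodelling genes 1 higher and 2 lower of 10 at 24 h. The smooth muscle markers Tagln and Myl9 were higher at 24 h by 4.59 ± 0.527 and 3.87 ± 0.428 (limma adjusted p = 3.19e-12 and 5.33e-13). The other smooth muscle markers measured were not called, and the part of these markers in the matrix results was not tested.

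Insulin was compared with its vehicle over the 7 drug conditions, 56 arrays against 56 at each hour. At 24 h 5 members were called. Fn1 fell, and Col1a2, Col5a1, Col5a2 and Fbln5 rose, which made 4 of 43 members higher, against 2.57% of probes, and 1 lower, against 1.42%. Col5a1 and Col5a2 encode chains of type V collagen, which assembles with type I collagen and limits the width of its fibrils. The rising collagens were 3 of the 6 fibrillar ones measured, and Col3a1, Col2a1 and Col5a3 were not called. With runs as the unit all 5 calls were lost (adjusted p = 0.463 to 0.519). Of the 5, 4 stayed called without the 3 arrays, at -1.19 for Fn1, 1.14 for Col1a2, 0.875 for Col5a1 and 0.467 for Fbln5.

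Fn1 scores at 24 h were -2.85, -0.344 and 1.73 (lowest, median, highest of 56) with insulin, against -1.94, 0.883 and 3.42 with vehicle. Of the insulin arrays 46 lay below the vehicle median. The difference was -1.20 ± 0.191 (limma adjusted p = 2.87e-06), and the runs were far apart, at -2.69 in run A, -0.250 in B, -1.93 in C and 0.0730 in D. Without run A it was -0.702 (adjusted p = 0.141) and without run C -0.956 (adjusted p = 0.0623).

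Col1a2 scores were -1.76, 0.755 and 3.45 with insulin, against -3.42, -0.0200 and 3.11 with vehicle, with 40 of 56 insulin arrays above the vehicle median. The difference was 1.13 ± 0.250 (limma adjusted p = 0.0016), positive in all 4 runs, at 1.89 in A, 0.553 in B, 1.28 in C and 0.776 in D. It was not called without run A (0.872, adjusted p = 0.272) or run C (1.07, adjusted p = 0.0788).

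Col5a1 scores were -1.97, 0.125 and 2.13 with insulin, against -4.32, -0.895 and 1.44 with vehicle. The difference was 0.891 ± 0.174 (limma adjusted p = 0.000233), and 0.587 without run C (adjusted p = 0.213). Col5a2 differed by 0.433 ± 0.135 (adjusted p = 0.0430) and Fbln5 by 0.468 ± 0.145 (adjusted p = 0.0429), with 41 and 39 of 56 insulin arrays above the vehicle median. Both were positive in all 4 runs and lost without run A (0.390 and 0.452) or run C (0.331 and 0.236, adjusted p = 0.469 and 0.752). Without the 3 arrays that go against their labels Col5a2 had an adjusted p of 0.0552, and without the run as a block Fbln5 had 0.0738. The fit without those arrays also called Itga8, an integrin alpha chain of smooth muscle, lower by -0.812 (adjusted p = 0.0452). The second probes of Col5a1 and Col5a2 did not share the change, at 0.188 ± 0.229 and 0.126 ± 0.180 (adjusted p = 0.802 and 0.837).

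**Figure D3:**
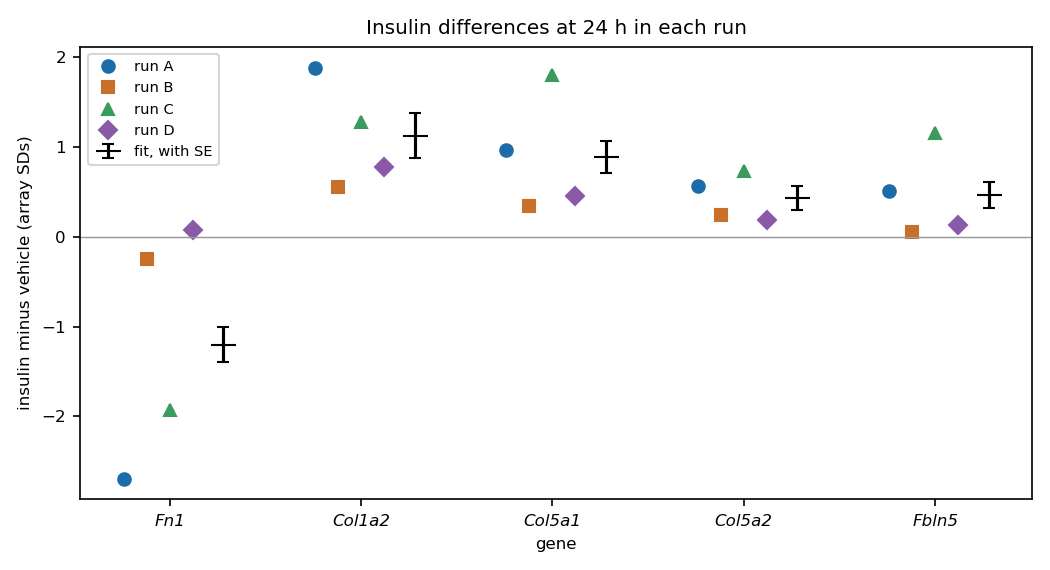
Insulin minus vehicle at 24 h (array SDs) for the 5 called genes, with a symbol for each of runs A to D and a bar for the fitted difference and its SE. Runs A and C lie farther from 0 than runs B and D for each gene, with Fn1 from -2.69 in run A to 0.0730 in run D.

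The upstream sequences of the 3 collagens that rose with insulin are shown because these genes were called together, with capitals marking the same motifs. The window of Col1a2 lies at chr4:33518307-33518556 and that of Col5a1 at chr3:31606630-31606879, both on the plus strand. That of Col5a2 lies at chr9:55090152-55090401 on the minus strand, and all are in GRCr8 from RefSeq.
Col1a2: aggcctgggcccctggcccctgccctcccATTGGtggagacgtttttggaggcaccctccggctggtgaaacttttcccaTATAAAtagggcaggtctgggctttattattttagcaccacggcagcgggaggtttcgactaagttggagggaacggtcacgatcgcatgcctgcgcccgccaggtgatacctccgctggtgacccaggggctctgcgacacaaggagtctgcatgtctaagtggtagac
Col5a1: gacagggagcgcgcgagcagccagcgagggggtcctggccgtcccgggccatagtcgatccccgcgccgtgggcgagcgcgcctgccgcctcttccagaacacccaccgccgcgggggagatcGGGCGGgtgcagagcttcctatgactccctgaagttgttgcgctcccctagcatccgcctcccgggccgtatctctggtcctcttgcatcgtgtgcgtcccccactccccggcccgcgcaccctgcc
Col5a2: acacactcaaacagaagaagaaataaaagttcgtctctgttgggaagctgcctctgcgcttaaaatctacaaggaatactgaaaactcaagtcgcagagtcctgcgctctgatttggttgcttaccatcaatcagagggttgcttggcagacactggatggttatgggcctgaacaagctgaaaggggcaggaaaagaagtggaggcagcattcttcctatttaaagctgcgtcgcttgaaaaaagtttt
Col1a2 held 1 match to CCAAT and 1 to TATAAA, Col5a1 held 1 to GGGCGG, and none of these letters was found in the window of Col5a2. Their GC contents were 58.4%, 71.6% and 44.8%. The TATAAA letters of Col1a2 lay 170 to 165 bases before the annotated start, and whether they act as a TATA box was not tested.

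Among the collagen maturation genes, 5 of 11 measured rose with insulin at 24 h and 0 fell. Over all probes 2.57% rose and 1.42% fell. These list genes were not refitted with a run left out or with runs as the unit, a fit in which the member calls at 24 h were lost. P4hb, a subunit of prolyl 4-hydroxylase, differed by 0.593 ± 0.141 (limma adjusted p = 0.00416), P3h4 by 0.642 ± 0.154, the collagen isomerase gene Ppib by 0.482 ± 0.141 (0.202 ± 0.117 on its other probe), and Pcolce and Adamts2, which act in removal of procollagen ends, by 0.828 ± 0.196 and 0.782 ± 0.172 (adjusted p = 0.00366 and 0.00142). The median of the 11 was 0.161, beside -0.0136 over all probes. In other matrix genes, Mgp, an inhibitor of calcification, fell by 1.99 ± 0.290 (adjusted p = 2.57e-07; -0.930 ± 0.221 on its other probe), while Ogn and Tgm2, the crosslinking transglutaminase 2 gene, rose by 1.16 ± 0.289 and 1.57 ± 0.357. Serpine2 and Mmp23 also rose, by 0.894 ± 0.188 and 0.770 ± 0.151. Smooth muscle, endothelial, leukocyte, fibroblast and bone markers gave no call in that comparison.

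At 6 h of insulin 3 members were called. Itgae, an integrin alpha chain known from lymphocytes that bind E-cadherin, rose, while Itga1, a collagen receptor chain, and Fn1 fell. This was 1 of 43 higher, against 3.59% of probes, and 2 lower, against 3.48%. With runs as the unit all 3 calls were lost (adjusted p = 0.208 to 0.254).

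Itgae scores were -2.75, 0.523 and 2.49 with insulin, against -1.24, -0.0340 and 1.36 with vehicle, with 43 of 56 insulin arrays above the vehicle median. The difference was 0.638 ± 0.130 (limma adjusted p = 0.000192), 0.294 to 1.14 in the runs, and stayed called without any 1 run and without the 3 arrays (0.625). In DMSO arrays alone its adjusted p was 0.646. Of 5 measured leukocyte markers of 10, 1 was called in this comparison, Cd14, lower by -0.460 ± 0.150, and the summed score of the 5 ran from -5.98 to 3.04 with insulin and from -4.96 to 4.22 with vehicle. The smooth muscle marker Lmod1 was lower by -0.587 ± 0.197, a call lost without the 3 arrays (adjusted p = 0.0612). Their part in the insulin results at 6 h was not tested.

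Itga1 scores were -3.12, -0.952 and 2.55 with insulin, against -2.69, 0.670 and 2.92 with vehicle. With 46 of 56 insulin arrays below the vehicle median, the difference was -1.21 ± 0.255 (limma adjusted p = 0.00035), at -2.27 in run A, -0.401 in B, -1.78 in C and -0.381 in D. It was not called without run A (-0.853, adjusted p = 0.0862) or run C (-1.02, adjusted p = 0.0659), and was -1.23 without the 3 arrays. Fn1 differed by -0.568 ± 0.191 (adjusted p = 0.0475), between -1.20 and -0.299 in the runs. That call was lost without run A (-0.358, adjusted p = 0.490), without run C (-0.605, adjusted p = 0.194), without the 3 arrays (-0.535, adjusted p = 0.0708) and without the run as a block (adjusted p = 0.0550). In the maturation list P3h1 and Serpinh1 rose, by 0.602 ± 0.123 and 0.356 ± 0.117, and the Serpinh1 call was lost without the 3 arrays (adjusted p = 0.0578).

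Insulin effects differed in size between runs beyond these members. The median absolute difference of the 43 members at 24 h was 0.302 in run A, 0.250 in B, 0.400 in C and 0.142 in D, beside 0.237, 0.212, 0.282 and 0.177 over all probes. In DMSO arrays alone, 8 against 8 at each hour, limma called none of these members for insulin. The members called over all drug conditions kept their directions there, from -0.729 for Fn1 to 0.948 for Itgae, both at 6 h.

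High glucose was set against normal glucose over the same 7 drug conditions. Cells had been at their glucose level for 24 h before treatment, so the hours here count treatment and not time in glucose. At 6 h Itga7 rose, 1 of 43 members against 1.57% of probes higher, and none fell, against 1.96%. At 24 h Itga7 and Col1a2 rose, 2 of 43 against 5.45% of probes, and none fell, against 4.56%. The laminin receptor chain was thus called at both hours. With runs as the unit the 6 h call stayed (adjusted p = 0.0435), and those at 24 h were lost (adjusted p = 0.228 for Itga7 and 0.129 for Col1a2). All 3 stayed called without the 3 arrays, at 0.984 and 0.595 for Itga7 and 0.913 for Col1a2.

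Itga7 scores at 6 h were -2.05, 0.941 and 3.65 in 25 mM glucose, against -2.28, -0.0200 and 3.00 in 5 mM, with 41 of 56 high-glucose arrays above the median of the normal-glucose ones. The difference was 0.970 ± 0.188 (limma adjusted p = 0.000148), 0.341 to 1.60 in the 4 runs, and 0.759 without run D (adjusted p = 0.0527). At 24 h it was 0.582 ± 0.188 (adjusted p = 0.0281), lost without run A (0.562), run C (0.496) or run D (0.522), with adjusted p of 0.0923 to 0.178.

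Col1a2 scores at 24 h were -3.42, 0.775 and 3.44 in 25 mM glucose, against -3.13, -0.0335 and 3.45 in 5 mM. The difference was 0.878 ± 0.250 (limma adjusted p = 0.0101), 0.636 to 1.14 in the runs, and it was lost without run A (0.843, adjusted p = 0.0700) or run B (0.790, adjusted p = 0.0961). Spp1 gave the largest of the called glucose differences among other matrix genes, 1.92 ± 0.272 at 6 h and 1.85 ± 0.272 at 24 h. In the maturation list P3h1 rose at 6 h by 0.534 ± 0.123, and P3h4 and Colgalt1 at 24 h by 0.778 ± 0.154 and 0.459 ± 0.143. The markers Cnn1 of smooth muscle and Cd14 of leukocytes were higher at 24 h by 0.488 ± 0.164 and 0.516 ± 0.150, and their part was not tested. The Cnn1 call was lost without the 3 arrays (adjusted p = 0.0601). The integrin adhesion list gave 2 of 14 higher at 24 h, against 5.45% of all probes. They were Vasp and Cd151, at 0.547 ± 0.146 and 0.391 ± 0.122.

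The effect of time was compared in DMSO cells, where Col18a1 and Lamc1 were higher at 24 than at 6 h, and Fbln5 and Itgae were lower, which made 2 of 43 members higher, against 4.31% of probes, and 2 lower, against 2.93%. All 4 calls were lost with runs as the unit (adjusted p = 0.257 to 0.415) and stayed without the 3 arrays, at 1.51 for Col18a1, 1.19 for Lamc1, -1.21 for Fbln5 and -0.806 for Itgae. Col18a1 encodes the basement membrane collagen from which endostatin is cut, and Lamc1 the gamma chain shared by most laminins.

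Col18a1 scores were -0.392, 0.396 and 1.72 at 24 h, against -2.97, -0.975 and 0.419 at 6 h, and all 16 later arrays lay above the 6 h median. The difference was 1.43 ± 0.341 (limma adjusted p = 0.00255), 2.89 in run A, 0.364 in B, 2.04 in C and 0.418 in D. Lamc1 differed by 1.11 ± 0.278 (adjusted p = 0.0045), and its second probe by 1.01 ± 0.324 (adjusted p = 0.0345). Neither first-probe call held without run A (0.941 and 1.01, adjusted p = 0.158 and 0.0648) or run C (1.22 and 0.775, adjusted p = 0.0776 and 0.201).

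Fbln5 scores were -1.75, -0.576 and 1.89 at 24 h, against -0.246, 1.07 and 2.49 at 6 h, with 10 of 16 later arrays below the lowest 6 h array. The difference was -1.20 ± 0.272 (limma adjusted p = 0.00138), and -0.889 without run D (adjusted p = 0.0586). Itgae differed by -0.787 ± 0.244 (adjusted p = 0.0276), -1.53 in run A, -0.114 in B, -1.38 in C and -0.116 in D, and was lost without run A (-0.537) or run C (-0.588), with adjusted p of 0.258 and 0.320, and with the compared groups alone (adjusted p = 0.131). The smooth muscle marker Myl9 was lower at 24 h by -2.20 ± 0.428 in these arrays, and its part was not tested. Serpinh1 was higher by 0.813 ± 0.218 and P3h1 lower by -0.858 ± 0.230. Actn1 was lower by -1.02 ± 0.324, a call lost without the 3 arrays (-0.851, adjusted p = 0.0901).

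Whether insulin or glucose altered the effect of a drug on these genes was tested in 8 interactions, for the highest dose of each drug at each hour. Limma called none of the 43 members and 0% of probes in any of them, with 0 to 5 members at an unadjusted p under 0.05. The largest was Itgb1 at 6 h, where the rapamycin effect in 25 mM minus that in 5 mM glucose was 4.44 ± 1.64 (adjusted p = 0.677).

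Among themselves the members did not move as a block. Over 224 arrays, which share runs and treatments, the 903 pairs of members had a median correlation of 0.0152, from -0.48 for Dcn with Itga8 to 0.579 for Fbln1 with Mfap2. The fibrillar collagens had a median of 0.136 over 15 pairs, and Col5a1 and Col5a2, whose products join in 1 molecule, correlated at 0.471. Col1a2 and Col3a1 were at -0.0680. Over the 56 group means, the closest pair was Col18a1 with Lamc1 (0.761), followed by Col18a1 with Lamb2 (0.688), all 3 basement membrane genes, and the most opposed were Fbln5 with Lamc1 (-0.72) and Col5a1 with Fn1 (-0.675).

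For 8 members the array carried a second probe. Its correlation with the first over 224 arrays was 0.606 for Lamc1 and 0.268 for Thbs2, and between 0.0144 (Itga5) and 0.142 (Thbs1) for the other 6. Col15a1, the gene of a basement membrane collagen, is the case where the choice of probe decides the result. Its second probe rose under 100 ng/mL rapamycin at 6 h by 2.25 ± 0.520 (limma adjusted p = 0.00226) and was higher at 24 than at 6 h in DMSO by 2.55 ± 0.520 (adjusted p = 0.000292), while the first probe differed by 0.409 and 0.386 and was not called. The second probe of Thbs2 was higher at 24 h by 1.81 ± 0.495 (adjusted p = 0.0104), with 0.487 on the first. Which probe reports each transcript was not tested.

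**Figure D4:**
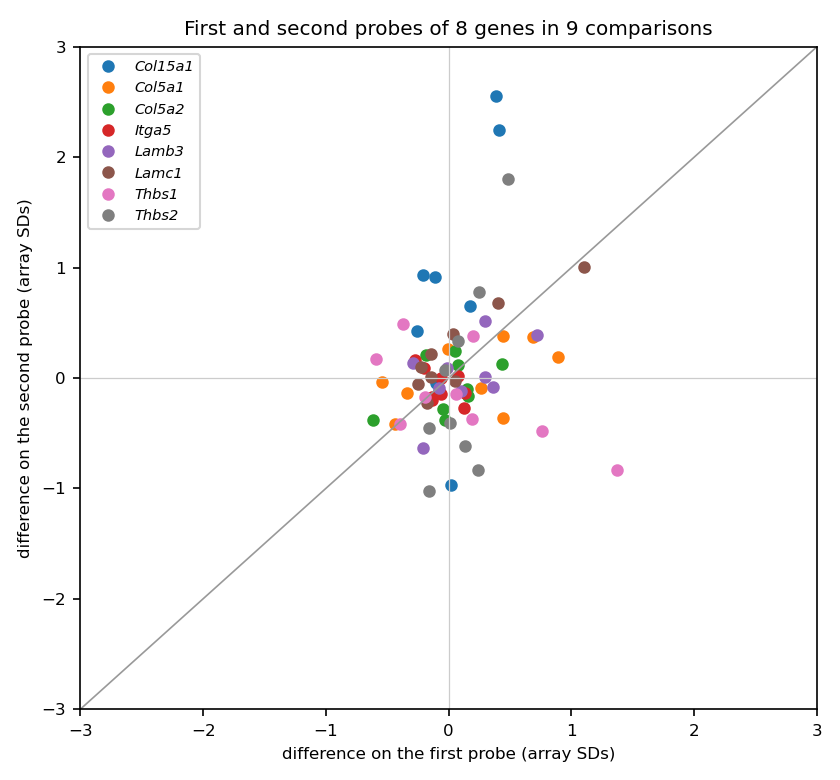
Differences (array SDs) on the second probe against those on the first for the 8 members with 2 probes, in the 9 comparisons of the heat map, with the diagonal for equal values. Most points lie off the diagonal, and the highest are Col15a1, with 2.55 and 2.25 on the second probe against 0.386 and 0.409 on the first.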

How the data were processed

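Total RNA of the cells (red dye) was hybridised with RNA of whole newborn pups (green dye) to 2-colour Agilent rat arrays, per the labels. The authors deposited 1 table of standardized scores for 224 arrays and 11575 probes, with 0 missing values. Per the series' design text, the authors normalized by loess, filtered features on intensity (30) and on the share of good data (70%), imputed gaps from 3 nearest neighbours, removed principal components linked to the replicate runs, and standardized the data. The log base is not given in the sources used here. Values imputed by the authors cannot be told from measured ones, and removing run components can take out biology that differed between runs. Array number, not read depth, limits precision.

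The deposited scores went unchanged into limma 3.58.1 (R 4.3.3). The model held a mean for each of 56 groups plus a block for runs (165 residual degrees of freedom, median residual SD 0.811). Drug contrasts averaged the 4 insulin and glucose combinations. The design had assumed log2 ratios, and the same model was kept for scores. Runs come from the labels. Deviations from group means correlated at 0.0210 within a run and 0.0654 within a run and hour. P-values were adjusted by Benjamini-Hochberg over all probes within each of 29 comparisons, two-sided, with no filter.

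Of 7473 probes with 1 symbol, the first per gene was used, while 2 probes with several symbols and 4100 with none were left unnamed. Members and gene lists were chosen with earlier results of these data known. Named were all called members, 12 measured members of a list of 16 under both highest doses, and part of the called genes of 4 other lists, chosen after their values were seen. Alternatives were no block, a block of run by hour, the compared groups alone, runs as the unit, each run left out, the mean of a gene's probes, quantile normalization, robust and trended eBayes, DMSO groups alone, and leaving out the nearly identical pair. The alternative without 3 arrays was chosen after seeing the data. The procedure was tested on simulated data.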

Additional observations from a re-analysis of the deposited data

Results flagged for a closer look

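Among the 26 called results, the values of the 4 runs were examined for a run far from the rest, and 1 stood out. For Col1a2 in 100 ng/mL rapamycin against 1000 ng/mL paclitaxel at 24 h, run A had a difference of -2.50 array SDs, while the other 3 runs lay between -1.17 and -0.948. The gap made up 0.857 of the whole range of the 4 runs, above Dixon's critical ratio at 95%. Chance gives such a gap in about 1 of 20 sets of values. Arms of 16 and 56 arrays were too large for this check.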

How the results depend on the processing

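Of the 26 called results, none turned its direction under any alternative run here. Counts of called members moved as follows. With runs as the unit the count was 1 for 100 ng/mL rapamycin at 6 h and 1 at 24 h, and 0 for 1 ng/mL rapamycin at 24 h, for insulin at both hours, for glucose at 24 h and for 24 against 6 h, and 6 of 26 results stayed called. Without the replicate block it was 0 for 1 ng/mL rapamycin and 1 for rapamycin against paclitaxel at 24 h, and 22 of 26 results kept their call while Col5a3 was gained in rapamycin against paclitaxel at 6 h (1.41, adjusted p = 0.0499), so pairing by run changed 5 calls. The compared groups alone gave 0 for 1 ng/mL rapamycin at 24 h, and lost 2 and gained 4 calls in all. DMSO groups alone, with fewer arrays, gave 0 for insulin and glucose at both hours. Quantile normalization and robust eBayes each gave 1 for rapamycin against paclitaxel at 24 h, the mean of all probes gave 5 at 6 h, run by hour gave 1 for the change of the rapamycin effect, and leaving out the 3 arrays gave 1 for 1000 ng/mL paclitaxel at 24 h. Leaving out each run in turn gave 0 to 2 called members for 100 ng/mL rapamycin at 6 h and 1 to 2 at 24 h, 0 to 1 for 1 ng/mL at 24 h, 0 to 1 for 1000 ng/mL paclitaxel at 24 h, 1 to 2 for rapamycin against paclitaxel at both hours, 1 to 5 for insulin at 6 h and 0 to 8 at 24 h, 0 to 1 for glucose at 6 h and 1 to 5 at 24 h, and 1 to 5 for 24 against 6 h. Without the 3 arrays, 66 calls of list and marker genes stayed, 4 were lost and 9 were gained. The cause of these moves was not tested.

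Direction turned in uncalled genes of the list named under both top doses, by leaving out a run unless stated otherwise. Under 100 ng/mL rapamycin at 6 h the range over left-out runs was -0.115 to 0.382 for Bgn, -0.151 to 0.106 for Col3a1, -0.0458 to 0.194 for Dcn, -0.175 to 0.660 for Fn1, -0.598 to 0.0867 for Itga5 and -1.03 to 0.730 for Thbs1. At 24 h it was -0.648 to 0.334 for Bgn, -0.189 to 0.126 for Eln, -0.133 to 1.37 for Itgb1, -0.753 to 0.0548 for Sparc and -0.499 to 0.522 for Tnc. Itga5 was -0.0735 with the mean of all probes. Tnc was 0.0355 after quantile normalization. Under 1000 ng/mL paclitaxel at 6 h it was -0.509 to 0.0420 for Bgn, -0.138 to 0.0766 for Eln, -0.371 to 0.366 for Fn1, -0.282 to 0.143 for Itga5, -0.324 to 0.162 for Sparc and -0.193 to 0.293 for Tnc. At 24 h of paclitaxel it was -0.00875 to 0.854 for Bgn, -0.197 to 0.222 for Col3a1, -0.237 to 0.0282 for Itga5 and -0.244 to 0.702 for Thbs1. Col3a1 was -0.00567 after quantile normalization. Col3a1 was -0.128 without the 3 arrays. Thbs1 was -0.0907 with the mean of all probes.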
